A study of Mus musculus with 204 samples.

Results

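The genes described here are 7 that encode proteoglycans of the extracellular matrix and the cell surface: Prelp, Fmod and Bgn of the small leucine-rich family, the glypicans Gpc1, Gpc3 and Gpc4, and the syndecan Sdc4. They were chosen by name as members of these families, with earlier results of these data known, and were 7 of the 13153 genes analysed. Optc and Nyx, also of the small leucine-rich family and among the genes analysed, are not members here. Their levels were read in bulk RNA sequencing libraries of 21 tissues from wild-type C57BL/6J mice, all male. Mice of the obese group (DIO, for diet-induced obesity) ate food with 60% fat for 10 weeks. Mice of the lean group stayed on standard chow with 13.1% fat. Each tissue had 5 libraries per diet, except that subcutaneous fat had 3 DIO and 5 lean, mesenteric fat 4 DIO and 3 lean, and EDL, a fast muscle of the leg, 5 DIO and 4 lean. The labels were inconsistent on age, with mice obtained at 6 to 12 weeks and the diet begun at 4 weeks, and they named 19 tissues in place of 21. They did not tie libraries to individual mice, so tissues may share animals and are not independent of each other, and p-values measure the spread between libraries.

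Proteoglycans are core proteins that carry long sulfated sugar chains. Small leucine-rich proteoglycans bind collagen fibrils in the matrix and influence how fibrils assemble, and biglycan (Bgn) can also act as a danger signal for innate immune receptors when it is freed from the matrix. Glypicans are tethered to the cell membrane by a lipid anchor and syndecans span it; the heparan sulfate on both binds growth factors, morphogens and lipoproteins. In fat, the matrix around adipocytes is remodelled as the tissue expands, and a released form of glypican 4 is known as an adipokine that modulates insulin signalling.

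Promoter sequences were available for 6 of the 7 genes, from RefSeq on build GRCm38.p6, each covering 250 bases before and 50 bases after the annotated start. Those of Prelp, Bgn, Gpc4 and Sdc4 are shown because these genes rose or fell with diet in different tissues, and that of Fmod because it lies near Prelp and did not pass the test in any tissue. Prelp and Fmod start 115.9 kb apart on chromosome 1, and Gpc3 and Gpc4 start 449.1 kb apart on chromosome X. Sequences run 5′ to 3′ on the strand of the gene, and capitals mark matches to GGGCGG (the GC box), CCAAT (the CCAAT box), TATAAA (the TATA box), CACGTG (an E-box) or CAGAC (a Smad element), searched on both strands, with overlapping matches counted separately.
Prelp, chr1:133921352-133921651, minus strand: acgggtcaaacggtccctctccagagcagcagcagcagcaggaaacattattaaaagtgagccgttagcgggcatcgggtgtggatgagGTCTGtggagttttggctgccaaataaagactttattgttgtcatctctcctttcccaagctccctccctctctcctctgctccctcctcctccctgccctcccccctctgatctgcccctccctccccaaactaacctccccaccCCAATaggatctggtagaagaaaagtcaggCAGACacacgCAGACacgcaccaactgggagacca
Fmod, chr1:134037004-134037303, plus strand: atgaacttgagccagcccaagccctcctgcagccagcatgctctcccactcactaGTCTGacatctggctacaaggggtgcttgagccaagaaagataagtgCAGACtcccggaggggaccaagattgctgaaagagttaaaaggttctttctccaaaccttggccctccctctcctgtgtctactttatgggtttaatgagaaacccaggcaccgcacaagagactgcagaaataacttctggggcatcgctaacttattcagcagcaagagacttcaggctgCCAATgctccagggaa
Bgn, chrX:73483351-73483650, plus strand: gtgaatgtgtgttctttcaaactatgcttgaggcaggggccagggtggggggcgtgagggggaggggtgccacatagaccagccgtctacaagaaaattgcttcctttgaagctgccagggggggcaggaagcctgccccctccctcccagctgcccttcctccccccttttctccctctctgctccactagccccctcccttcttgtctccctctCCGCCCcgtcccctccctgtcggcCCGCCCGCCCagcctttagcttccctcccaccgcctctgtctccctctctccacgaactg
Gpc4, chrX:52164874-52165173, minus strand: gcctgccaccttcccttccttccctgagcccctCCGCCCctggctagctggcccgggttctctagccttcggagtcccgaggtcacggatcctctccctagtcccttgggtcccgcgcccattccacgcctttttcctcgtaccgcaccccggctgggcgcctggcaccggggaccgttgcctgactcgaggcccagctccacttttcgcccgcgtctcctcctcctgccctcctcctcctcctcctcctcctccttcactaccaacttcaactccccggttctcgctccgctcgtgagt
Sdc4, chr2:164443139-164443438, minus strand: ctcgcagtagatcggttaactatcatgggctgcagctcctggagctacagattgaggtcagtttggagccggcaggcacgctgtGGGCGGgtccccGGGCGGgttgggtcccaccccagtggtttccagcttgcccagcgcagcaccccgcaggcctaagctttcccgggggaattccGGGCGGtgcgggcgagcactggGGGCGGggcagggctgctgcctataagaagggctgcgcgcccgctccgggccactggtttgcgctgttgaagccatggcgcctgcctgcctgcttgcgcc

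The Prelp window held 1 CCAAT match and 3 CAGAC matches, and the Fmod window held 1 CCAAT match and 2 CAGAC matches. Neither held a match to GGGCGG. The Bgn window held 3 matches to GGGCGG, the Gpc4 window 1 and the Sdc4 window 4, and none of these 3 windows held CCAAT or CAGAC. The Gpc3 window (chrX:52613925-52614224, minus strand) held 4 GGGCGG matches and 1 CCAAT match. No TATAAA or CACGTG was found in the 6 windows. Of 32851 promoters of the same length, 35.7% held GGGCGG, 37.4% CCAAT, 49.6% CAGAC, 13.6% TATAAA and 7.15% CACGTG, and 16.2% held CAGAC at least 2 times. The matches describe these letters and no binding was measured.

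Library totals lay between 6.58 M and 129.7 M reads (median 20.7 M, second highest 30.9 M). Levels are given in CPM, counts scaled to the library total, not scaled to gene length, so levels are compared between tissues and never between genes. In 10 libraries a marker of another tissue was present or the tissue's own marker was missing. Where the markers present came from was not tested. In subcutaneous fat, lean replicates 2 and 3 had Cr2, a lymphoid marker, at 146.6 and 146 CPM, and in mesenteric fat DIO replicate 2 had it at 268.8 CPM. Brown fat DIO replicate 5 and lean replicate 2 had the muscle gene Tnnc2 at 329.8 and 158.5 CPM. Retroperitoneal DIO replicate 3 had the lymphoid gene Cd2 at 35.2 CPM and lean replicate 2 had Tnnc2 at 77.1 CPM. Adrenal DIO replicates 1 and 2 and lean replicate 1 had Hsd3b1, the steroid enzyme of the adrenal cortex, at 0.173, 0.0833 and 0 CPM.

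In lean mice the 7 genes had different tissue orders. Prelp was highest in fat: epididymal fat had 859 ± 309 CPM (mean ± SD, n = 5), retroperitoneal 732 ± 254 (n = 5), subcutaneous 380.1 ± 202 (n = 5), mesenteric 297 ± 17.5 (n = 3) and brown fat 215 ± 39.2 (n = 5), with adrenal at 242 ± 65.6 (n = 5). Neighbours among these 6 tissues overlapped in their libraries, and a gap separated brown fat from the next tissue, colon, at 87.9 ± 47.4 CPM. Duodenum was lowest at 18.7 ± 8.65 CPM. Fmod had its highest means in skeletal muscle, with 88.4 ± 30.5 CPM in soleus, 82.1 ± 12.1 in red gastrocnemius and 76.5 ± 45.6 in EDL, and it was near 0 in brown fat (0.534 ± 0.174 CPM) and duodenum (0.207 ± 0.351 CPM). All 20 steps between neighbouring tissues overlapped for Fmod. Bgn was highest in adrenal at 385 ± 173 CPM and lowest in hypothalamus at 11.4 ± 2.58 CPM, and its brown fat level of 32.9 ± 5.51 CPM was the lowest of the 5 fat depots.

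**Figure D1:**
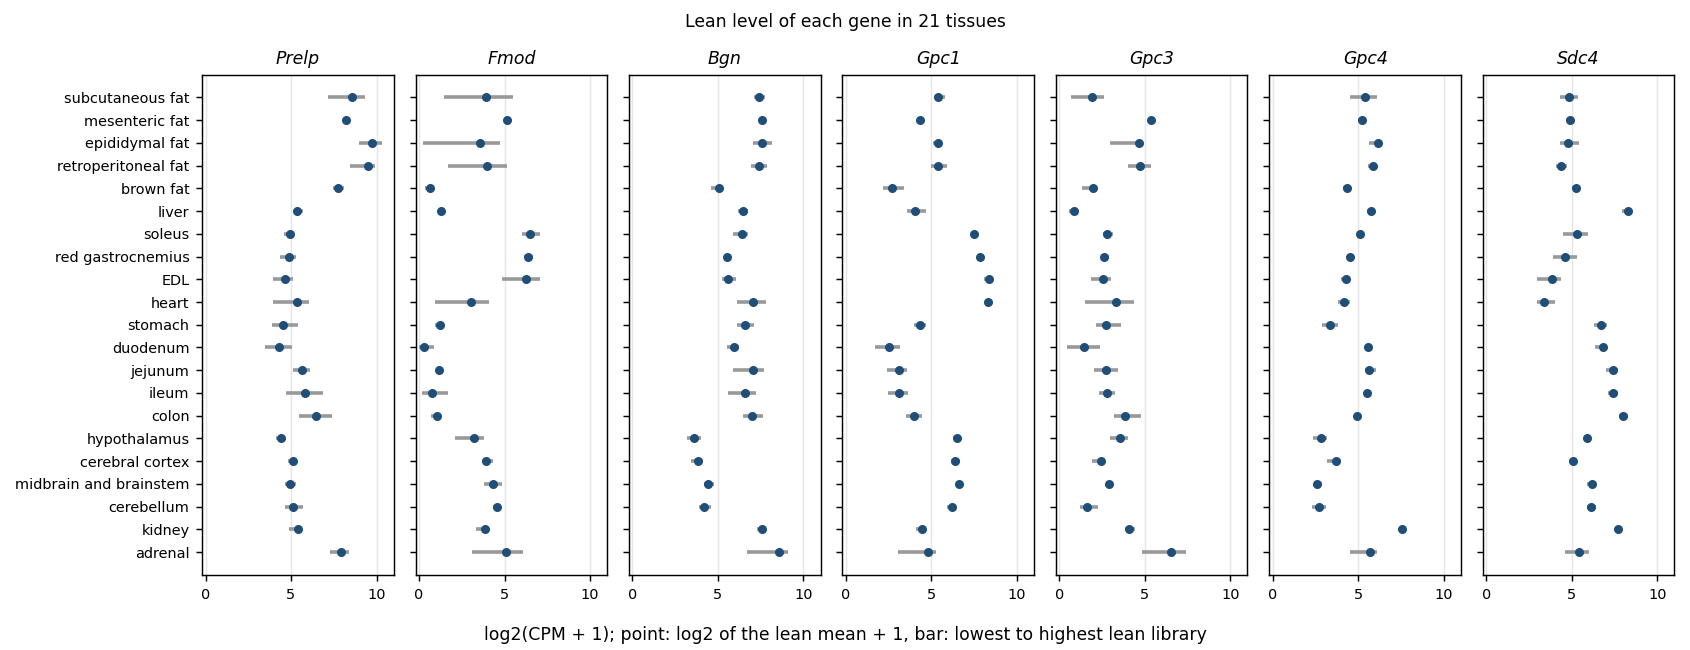
Lean level of each gene in 21 tissues on a log2(CPM + 1) axis; points are means and bars run from the lowest to the highest lean library. Prelp is highest in the 4 white fat depots, Gpc1 in muscle and heart, Gpc4 in kidney and Sdc4 in liver.

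Gpc1 was highest in striated muscle, with 326 ± 39.0 CPM in EDL (n = 4), 311 ± 31.5 in heart (n = 5), 224 ± 7.29 in red gastrocnemius (n = 5) and 178 ± 10.4 in soleus (n = 5). EDL and heart overlapped, and the steps from heart to red gastrocnemius, from there to soleus and from soleus to the brain regions did not. Its lean level in brown fat, 5.37 ± 2.35 CPM, was second lowest after duodenum at 4.79 ± 2.31 CPM. Gpc3 was highest in adrenal at 92.6 ± 52.6 CPM and next in mesenteric fat at 39.3 ± 0.819 CPM, with 2.78 ± 2.14 CPM in subcutaneous fat and 0.820 ± 0.227 CPM in liver. Gpc4 stood alone in kidney at 189 ± 7.74 CPM, above all libraries of the next tissue, epididymal fat, at 69.9 ± 15.9 CPM. Sdc4 was highest in liver at 307 ± 47.4 CPM, then colon at 258 ± 40.9 and kidney at 210.1 ± 20.3, and lowest in heart at 9.18 ± 3.32 CPM. Of 20 steps between neighbouring tissues, 19 overlapped for Prelp and Bgn, 16 for Gpc1, 18 for Gpc4 and 20 for Gpc3 and Sdc4.

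Lean levels were tested between the tissues of 4 families with a limma F test on log2(CPM + 1), adjusted over the genes that averaged 10 CPM or more in the family. Among the 4 white fat depots, 4 of 7 genes differed (limma, adjusted p = 0.000142 for Gpc3, 0.00184 for Gpc1, 0.0171 for Prelp and 0.022 for Gpc4), where 29% of all genes did. Fmod, Bgn and Sdc4 had adjusted p of 0.269, 0.809 and 0.280. Among 3 skeletal muscles, Bgn, Gpc1, Gpc4 and Sdc4 differed and Prelp and Fmod did not pass, against a background of 70.3%. All 4 tested genes differed between 4 intestine segments (background 75.5%) and all 5 between 4 brain regions (background 93.2%). Over the 21 lean tissue means, the genes whose log2 levels tracked each member most closely were, with Pearson r as a description, Gm10851 (0.949) and Gm15551 (0.945) for Prelp, Rapgef1 (0.849) and Dcaf8 (0.833) for Fmod, Gstm2 (0.914) and Pla2r1 (0.909) for Bgn, Pkia (0.919) and Usp13 (0.913) for Gpc1, Ptgis (0.805) and Emcn (0.743) for Gpc3, Itpripl1 (0.857) and Adh1 (0.825) for Gpc4, and Sgk2 (0.915) and Cldn2 (0.892) for Sdc4. The points are tissues that share libraries across genes, so these values say only which genes lie close.

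The diet comparison asked how obesity changed each gene within a tissue. Genes that averaged 10 CPM or more in the tissue were tested with limma on log2(CPM + 1), and a change was called at an adjusted p under 0.05 over all genes tested in that tissue. Of 147 combinations of gene and tissue, 116 passed this filter: Prelp and Bgn in 21 tissues, Sdc4 in 20, Gpc1 in 18, Gpc4 in 17, Fmod in 12 and Gpc3 in 7. Across them 21 rises and 6 falls were called, where 8.33% of all genes tested over the 21 tissues rose and 3.19% fell. Because the members were chosen with earlier results known, these shares are a background and no test of the set. Prelp, Bgn and Gpc1 gave 18 of the 21 rises, 6 each, and Sdc4 the other 3; the falls were 2 of Gpc4, 2 of Sdc4, 1 of Gpc3 and 1 of Gpc1. The calls lay in the 5 fat depots, liver, soleus, red gastrocnemius and duodenum. Groups are said not to overlap where every library of 1 diet lay above every library of the other. The share of all genes with such groups is not given here, so separation only describes the libraries of a gene.

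Many genes shifted together in some tissues, so values were also rescaled by median-of-ratios factors. Rescaling lowered the log2 change of the median gene by 0.40 in mesenteric fat, 0.25 in retroperitoneal, 0.16 in epididymal, 0.13 in brown fat and liver, 0.15 in duodenum and adrenal and 0.16 in stomach, and raised it in EDL, where the shift was -0.14. Rises made up 84.6% of all calls in mesenteric fat as deposited and 34.9% after rescaling. The same shares were 65.8% and 38.7% in brown fat, 77.5% and 41.2% in liver, 67.1% and 52.9% in epididymal fat, 77.7% and 54.0% in retroperitoneal fat and 65.5% and 77.8% in soleus. After rescaling the 7 genes had 18 rises and 7 falls, against 4.71% and 5.17% of all genes. For tissues with a shift over 0.1 the rescaled change is given beside the deposited one where a change is first described.

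**Figure D2:**
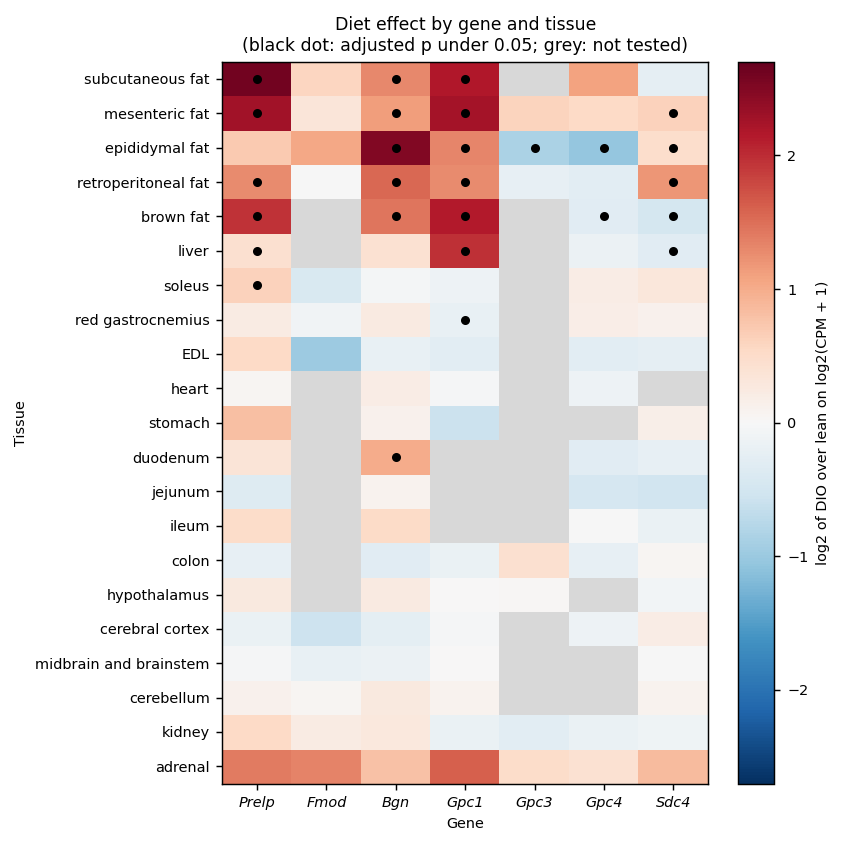
Change with diet of each gene in each tissue, as log2 of DIO over lean on log2(CPM + 1), with a dot where the adjusted p is under 0.05 and grey where the gene was not tested. Red cells with dots fill the Bgn and Gpc1 columns in the 5 fat depots and the Prelp column in all of them but epididymal fat, and the 6 falls called are in Gpc1, Gpc3, Gpc4 and Sdc4.

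Prelp encodes a leucine-rich repeat protein that anchors basement membranes to the surrounding collagen. In subcutaneous fat its DIO libraries had 2114, 1938 and 2028 CPM and its lean libraries 647, 226, 142, 488 and 397. In brown fat the DIO libraries had 958, 919.8, 685, 748 and 844 CPM and the lean ones 213, 230.1, 175, 183 and 272. In mesenteric fat DIO had 1458, 835, 1989.6 and 1691 CPM and lean 317, 284 and 291. Every DIO library lay above every lean one in these 3 depots, and the mean was 5.33, 3.87 and 5.03 times the lean mean. The log2 changes were 2.60 ± 0.47 (adjusted p = 0.0123), 1.96 ± 0.13 (1.28e-06, rescaled 1.83) and 2.26 ± 0.29 (0.00208, rescaled 1.84). Of all genes tested, 8.83% rose in subcutaneous, 29% in brown and 38% in mesenteric fat.

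Leaving out any of the 3 DIO libraries ended the subcutaneous call of Prelp (adjusted p between 0.0581 and 0.0726), with a log2 change of 2.57 to 2.64. Its 2 lowest lean libraries there, at 226 and 142 CPM, were replicates 2 and 3, which carried Cr2, and without both the change was 2.01 (adjusted p = 0.000174). The number of all genes called in subcutaneous fat ran from 185 to 972 over the alternatives, against 274 in the main fit. In retroperitoneal fat Prelp rose by 1.27 ± 0.36 (adjusted p = 0.0126, rescaled 1.02), from lean libraries of 879, 603, 351, 980.0 and 846 CPM to DIO libraries of 1879, 2207, 719, 1561.3 and 2713, where DIO replicate 3, which carried Cd2, overlapped the lean range. The retroperitoneal background was 35%. In epididymal fat, where the lean level was already the highest, DIO had 817, 2061, 851, 1441 and 2093 CPM against 1021, 503, 667, 1295 and 807, and the change of 0.72 ± 0.32 did not pass (adjusted p = 0.0791, rescaled 0.56).

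Outside fat, Prelp rose in soleus by 0.62 ± 0.12 (adjusted p = 0.0323), where 1.12% of genes rose. DIO libraries had 40.9, 37.7, 56.4, 47.5 and 43.2 CPM and lean libraries 28.8, 34.1, 30.7, 23.0 and 28.7, without overlap, and the call was lost when any of 7 libraries was left out, with no filter (adjusted p = 0.0922) and in a single fit over all libraries. Summed adipocyte markers in soleus were 415 to 578 CPM in DIO and 349 to 392 in lean, also without overlap, and their part in the Prelp change was not tested. Of these markers 1 of 3 tested was called higher, as deposited and after rescaling. In liver Prelp was 0.44 ± 0.15 higher (adjusted p = 0.0443), where 20.9% of genes rose. DIO replicate 3 stood at 82.5 CPM, with the other DIO libraries between 47.4 and 53.4 and the lean ones between 35.6 and 50.1. This liver call ended after rescaling (0.31, adjusted p = 0.0923), and once a 10-gene index was added as a covariate the change was 0.08 (adjusted p = 0.878). It was also lost with edgeR (adjusted p = 0.0825), with no filter (0.0893) and in a single fit over all libraries (0.606).

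Biglycan (Bgn) had its largest change in epididymal fat. DIO libraries had 1764, 1021, 980.4, 1117 and 606 CPM and lean libraries 198, 143, 195, 283 and 133, with a mean ratio of 5.77 and no overlap. The log2 change was 2.49 ± 0.27 (adjusted p = 8.2e-06, rescaled 2.33), where 36.3% of genes rose. In retroperitoneal fat it was 1.56 ± 0.19 (3.9e-05, rescaled 1.31), from 174, 129, 123, 232 and 177 CPM in lean to 405, 583, 519, 407 and 516 in DIO. Subcutaneous fat had 468, 443 and 349 CPM in DIO and 152, 178, 217, 169.9 and 135 in lean, a change of 1.30 ± 0.18 (0.00541). In mesenteric fat the change was 1.13 ± 0.14 (0.00182, rescaled 0.71), and in brown fat 1.45 ± 0.15 (2.4e-05, rescaled 1.32), from 23.4 to 36.5 CPM in lean to 65.0 to 108 CPM in DIO. DIO lay above lean without overlap in all 5 depots.

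In duodenum Bgn rose by 1.01 ± 0.16 (adjusted p = 0.0340, rescaled 0.85), where 0.289% of genes rose. DIO had 153, 95.0, 113, 108 and 136 CPM and lean 45.1, 60.7, 74.1, 65.3 and 53.1, without overlap, but leaving out any of 9 of the 10 libraries ended the call, as did the 10-gene index (adjusted p = 0.127). Summed endothelial markers in duodenum were likewise separated, at 57.4 to 88.7 CPM in DIO and 28.5 to 51.7 in lean, and their part was not tested. Of these markers 0 of 3 tested were called, as deposited and after rescaling. The liver change of 0.41 ± 0.15 did not pass (adjusted p = 0.0726, rescaled 0.27). Fibromodulin (Fmod), which like Bgn binds collagen fibrils, was called in 0 of 12 tissues by limma, edgeR and DESeq2, with 1, 3 and 3 tissues at an unadjusted p under 0.05. In epididymal fat it had 18, 15.7, 11.2, 21.9 and 12.6 CPM in DIO and 7.05, 0.179, 8.51, 25.3 and 12.2 in lean (1.05 ± 0.62, adjusted p = 0.170, rescaled 0.92). In EDL it was 36.6 ± 18.6 CPM in DIO and 76.5 ± 45.6 in lean (-0.99 ± 0.46, adjusted p = 0.890, rescaled -0.84).

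**Figure D3:**
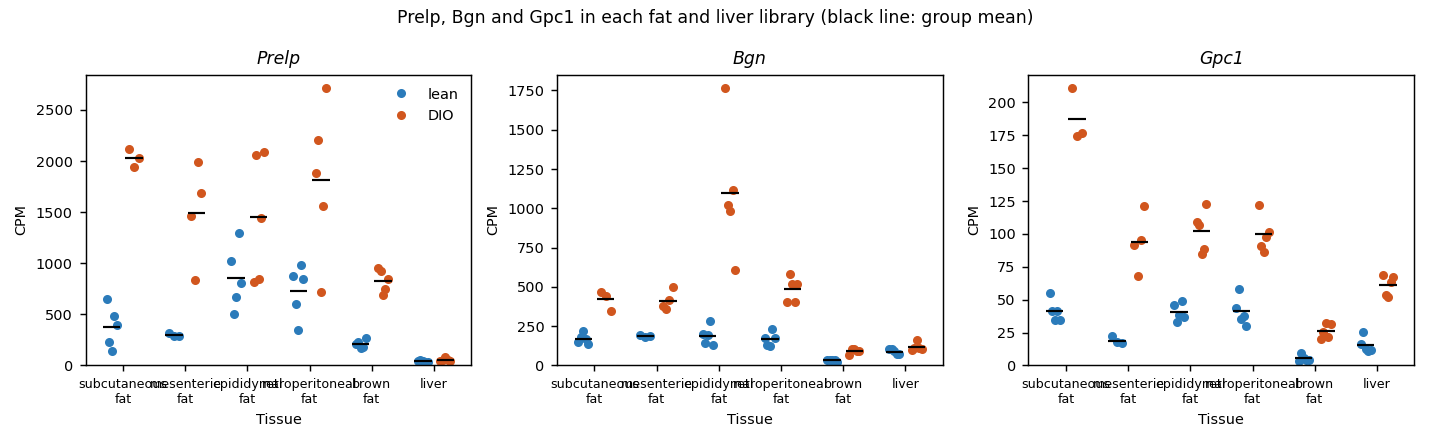
CPM of Prelp, Bgn and Gpc1 in each library of 5 fat depots and liver, lean in blue and DIO in orange, with a black line at the group mean. Prelp in subcutaneous fat is at 1938 CPM or more in all 3 DIO libraries and at 647 or less in lean, and Gpc1 in liver is separated between the diets.

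Glypican 1 (Gpc1) had more tissues with a rise than the other glypicans, and its calls in subcutaneous, mesenteric, epididymal, retroperitoneal and brown fat and in liver all held without any single library. In liver its DIO libraries had 68.8, 53.9, 51.8, 63.4 and 66.9 CPM and its lean libraries 16.4, 25.2, 12.8, 10.8 and 11.6. The groups did not overlap, the mean ratio was 3.97 and the log2 change 1.98 ± 0.19 (adjusted p = 6.3e-05, rescaled 1.85). In brown fat, DIO had 19.8, 25.3, 32.3, 21.8 and 31.4 CPM and lean 3.46, 9.37, 5.45, 4.34 and 4.22, a change of 2.13 ± 0.22 (2.15e-05, rescaled 2.01). In subcutaneous fat, DIO had 211, 175 and 177 CPM and lean 54.9, 41.7, 34.7, 41.5 and 34.5, a change of 2.16 ± 0.16 (0.00113). In mesenteric fat it rose by 2.24 ± 0.20 (0.000579, rescaled 1.84), from 16.8 to 22.1 CPM in lean to 68.0 to 122 in DIO.

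The rises in epididymal fat, 1.32 ± 0.14 (adjusted p = 7.1e-06, rescaled 1.16), and in retroperitoneal fat, 1.29 ± 0.17 (7.9e-05, rescaled 1.04), took Gpc1 from means of 40.4 ± 6.54 and 41.0 ± 10.8 CPM to 102 ± 15.6 and 99.7 ± 13.8. In red gastrocnemius, where lean Gpc1 was high, DIO libraries had 216, 194, 189, 177 and 201 CPM and lean 212, 227, 232, 224 and 224. The fall of 0.20 on the log2 scale (SE 0.05, adjusted p = 0.0451), where 1.77% of genes fell, ended after rescaling and in 8 of 10 left-out fits. It also ended with edgeR (adjusted p = 0.0652), no filter (0.125), a single fit over all libraries (0.9998) and the 10-gene index (0.100). Summed skeletal muscle markers there were 29590 to 31280 CPM in DIO and 33450 to 35300 in lean, without overlap. Of these markers 0 of 4 tested were called as deposited. After rescaling 1 of 4 was called lower, where 28 of 1640 genes were. Their part in the Gpc1 change was not tested. In adrenal the DIO libraries had 96.5, 130, 60.7, 53.1 and 57.8 CPM and lean 7.13, 29.1, 38.2, 30.8 and 29.2, without overlap, yet the change of 1.62 ± 0.43 did not pass (adjusted p = 0.257, rescaled 1.48). Without the 3 adrenal libraries that lacked Hsd3b1 it was 0.83 (adjusted p = 0.0431). The number of all genes called in adrenal ran from 0 to 677 over the alternatives, against 3 in the main fit.

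The other glypicans had no rise called. Glypican 4 (Gpc4) fell in epididymal fat by 1.05 on the log2 scale (SE 0.31, adjusted p = 0.0107; rescaled -1.21), where 17.8% of genes fell. DIO libraries had 15.5, 46.7, 26.0, 30.2 and 62.2 CPM and lean libraries 79.8, 48.6, 80.2, 57.2 and 83.7, so DIO replicate 5 overlapped the lean range. In brown fat the change was -0.31 ± 0.11 (adjusted p = 0.0345, rescaled -0.43), with 14, 15.9, 18.2, 13.3 and 15.8 CPM in DIO against 20.1, 17.2, 20.8, 22.8 and 16.0 in lean, and 15.1% of genes fell. The call was lost in 7 left-out fits and with no filter (adjusted p = 0.0767). It was also lost in a single fit over all libraries (0.317) and with the 10-gene index (0.0566). In subcutaneous fat DIO had 89.5, 79.4 and 77.4 CPM and lean 66.1, 30.2, 21.9, 43.3 and 42.5, without overlap, and the change of 1.08 ± 0.31 just missed the threshold (adjusted p = 0.0578). Without the 2 lean libraries that carried Cr2 it was 0.71 (adjusted p = 0.00968). Over the alternatives the number of all genes called in this depot also varied, from 185 to 972, against 274 in the main fit.

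After rescaling, Gpc4 also fell in liver (-0.29, adjusted p = 0.0184) and retroperitoneal fat (-0.53, adjusted p = 0.0327); the deposited values of -0.16 and -0.28 did not pass (0.153 and 0.241). Of all genes, 12.6% fell in liver and 17.7% in retroperitoneal fat after rescaling, and 10% fell in retroperitoneal fat as deposited. In jejunum Gpc4 had 37.0, 40.3, 26.7, 32.4 and 37.2 CPM in DIO and 45.1, 40.9, 45.7, 64.2 and 43.4 in lean, every DIO library below the lean ones, with an adjusted p of 0.0743. Glypican 3 (Gpc3), which is known for binding hedgehog proteins and restraining growth, fell in epididymal fat by 0.86 on the log2 scale (SE 0.34, adjusted p = 0.0488; rescaled -1.01). Lean replicate 2 had 6.80 CPM while the other lean libraries had 26.8 to 28.8 and DIO libraries 7.27 to 15.0, and the call was lost in 8 of 10 left-out fits and with no filter (adjusted p = 0.132). In mesenteric fat Gpc3 was 101, 31.2, 68.2 and 62.6 CPM in DIO and 39.8, 39.8 and 38.4 in lean (0.61 ± 0.35, adjusted p = 0.168, rescaled 0.20). In subcutaneous fat it was below the filter, at 12.2, 12.0 and 7.09 CPM in DIO and 5.18, 0.627, 0.723, 4.68 and 2.67 in lean.

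**Figure D4:**
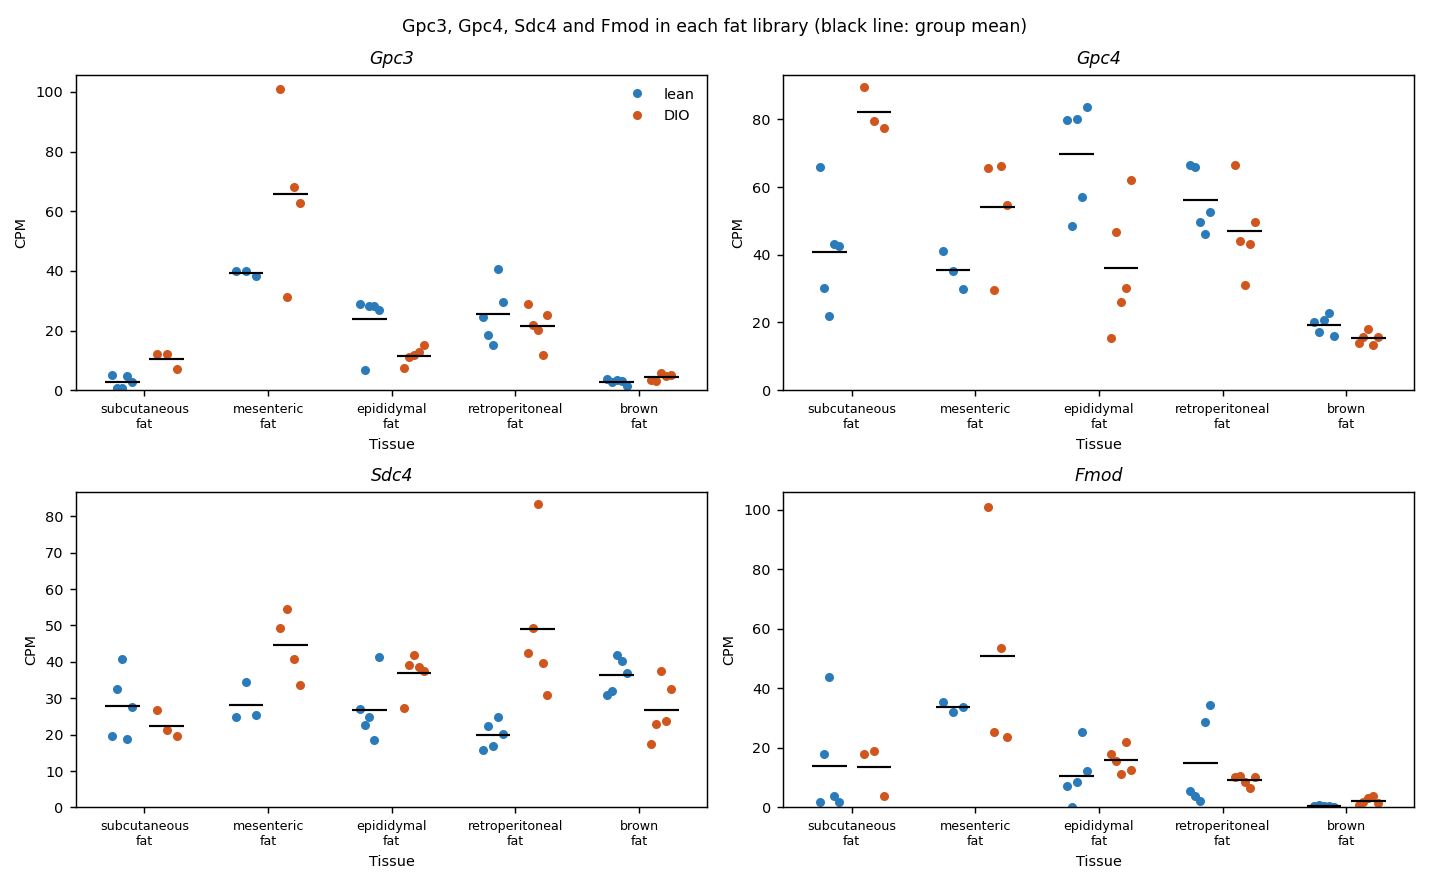
CPM of Gpc3, Gpc4, Sdc4 and Fmod in each library of 5 fat depots, lean in blue and DIO in orange, with a black line at the group mean. Gpc4 is higher in DIO in subcutaneous fat and lower in epididymal fat, and Sdc4 is higher in DIO in retroperitoneal fat and lower in brown fat.

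Syndecan 4 (Sdc4), a membrane-spanning co-receptor at focal adhesions, rose in retroperitoneal fat. DIO libraries had 42.3, 49.4, 83.3, 39.7 and 31.0 CPM and lean libraries 15.7, 22.2, 16.9, 25.0 and 20.2, with no overlap. The change was 1.19 ± 0.23 (adjusted p = 0.00111, rescaled 0.95). Smaller rises, each lost in several fits, were called in mesenteric fat (0.63 ± 0.19, adjusted p = 0.0343) and epididymal fat (0.48 ± 0.19, adjusted p = 0.0457); after rescaling they were 0.23 (0.380) and 0.33 (0.109), past the threshold in neither. In liver, its tissue of highest level, Sdc4 fell by 0.31 on the log2 scale (SE 0.10, adjusted p = 0.0322; rescaled -0.45), with DIO libraries of 246, 241, 249.6, 245 and 242 CPM against 280.3, 331, 369, 312 and 245, where 6.06% of genes fell. This liver call was lost with no filter (adjusted p = 0.0698), in a single fit over all libraries (0.476) and with the 10-gene index, where the change was -0.19 (0.557). In brown fat it fell by 0.47 (SE 0.18, adjusted p = 0.0481, rescaled -0.59), with overlapping groups of 17.5 to 37.4 CPM in DIO and 30.9 to 41.8 in lean. This brown fat call was lost with no filter (adjusted p = 0.116) and in a single fit (0.146). With the level of the muscle gene Ttn as a covariate the change was -0.39 and did not pass (adjusted p = 0.124). With 1 library left out at a time, the mesenteric call was lost in 4 of 7 fits, the epididymal one in 8 of 10 and the falls in liver and brown fat each in 7 of 10. In mesenteric fat 6.9% of genes fell and in subcutaneous fat 3.64%, and no member was called lower there.

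Because the depots share an organ type, the diet effect was tested for differences between them. Depots may share mice, and the test treated their libraries as independent. In the sample titles, library numbers of subcutaneous and mesenteric fat lay apart from those of epididymal and retroperitoneal fat. What these numbers stand for is not stated, so depot and number range cannot be told apart. Among the 4 white fat depots, the diet by depot term passed for 6 of 7 genes, where 38.6% of all genes did: Gpc4 (adjusted p = 0.00243), Gpc1 (0.00351), Gpc3 (0.00574), Bgn (0.00758), Sdc4 (0.0137) and Prelp (0.0327), and not for Fmod (0.811). Bgn changed by 2.49 in epididymal fat and by 1.13 to 1.56 in the other 3 depots. Gpc1 changed by 2.16 and 2.24 in subcutaneous and mesenteric fat and by 1.29 and 1.32 in retroperitoneal and epididymal fat, and Prelp by 2.60 and 2.26 in the first 2 against 1.27 and 0.72. Gpc4 ran from 1.08 in subcutaneous to -1.05 in epididymal fat and Sdc4 from -0.25 in subcutaneous to 1.19 in retroperitoneal. Without the white fat libraries set out above for Cr2, Cd2 or Tnnc2, Sdc4 had an adjusted p of 0.0700 in this limma F test. The Prelp term was lost with no filter (adjusted p = 0.0901) and in 9 of 35 fits that left out 1 library. Between skeletal muscles 0 of 6 genes passed (0.0614% of all genes), between intestine segments 0 of 4 (16.1%) and between brain regions 0 of 5 (0%).

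In the 12 tissues without a called change, 63 combinations were tested, 0 were called by limma and edgeR and 2 by DESeq2, and 11, 14 and 15 had an unadjusted p under 0.05. In these tissues 0.837% of all genes were called by limma. By limma, all genes at an unadjusted p under 0.05 ran from 16 of 2391 in cerebellum to 583 of 2021 in jejunum. EDL DIO replicate 3 had 349.4 CPM of Prelp and 129 of Bgn, where the other 4 DIO libraries had 6.503 to 49.5 and 17.3 to 47.2. In heart, kidney and the 4 brain regions the log2 changes of Gpc1 lay between -0.18 and 0.09.

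Of the other genes of these pathways on the chromosomes covered, the heparan sulfate list had 9 of 25 genes, and 2 of 6 tested rose in epididymal fat, where 36.3% of all genes did: Hs6st1, a 6-O-sulfotransferase, by 1.65 ± 0.17 (adjusted p = 6.07e-06, rescaled 1.49) and Sulf1, which removes 6-O-sulfate, by 1.15 ± 0.21 (0.000593, rescaled 0.9987). After rescaling 1 of the 6 also fell there, Sulf2 (-0.49, adjusted p = 0.0359), where 25.7% of all genes fell. Hs6st1 also rose in subcutaneous (0.77), mesenteric (1.14, rescaled 0.74) and retroperitoneal fat (1.71, rescaled 1.46). Sulf2, a sulfatase related to Sulf1, rose in brown fat by 0.94 ± 0.05 (rescaled 0.81) and in liver by 1.36 ± 0.17 (rescaled 1.24). Of all genes 29% and 20.9% rose in these 2 tissues. The linker and chondroitin or dermatan sulfate list had 5 of 23 genes, with 4 tested in each white depot. In subcutaneous, mesenteric, epididymal and retroperitoneal fat 1, 2, 2 and 2 of these 4 rose, where 8.83%, 38%, 36.3% and 35% of all genes did. Chpf, a chondroitin polymerising factor, rose in all 4 depots, by 1.0046, 0.84, 0.70 and 0.49 in the same order. After rescaling its changes were 1.02, 0.43, 0.55 and 0.24, of which the mesenteric and retroperitoneal ones did not pass. Dsel, a dermatan sulfate epimerase-like gene, rose in mesenteric (1.02, rescaled 0.63), epididymal (1.18, rescaled 1.03) and retroperitoneal fat (0.93, rescaled 0.71). Cd44, a hyaluronan receptor that can carry such chains, rose by 2.15, 4.14 and 3.56 in the same 3 depots (rescaled 1.74, 3.99 and 3.32). Of the 2 genes tested there from its list, other proteoglycans and link proteins, 1, 2 and 1 rose, where 38%, 36.3% and 35% of all genes did.

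Of 26 heparan sulfate binding ligands 11 were in the table, and Fgf2 was the only 1 tested in epididymal and in retroperitoneal fat. Fgf2 fell in epididymal (-1.45 ± 0.21, rescaled -1.61) and retroperitoneal fat (-1.17 ± 0.24, rescaled -1.41). Of all genes 17.8% and 10% fell in these 2 depots, and 25.7% and 17.7% after rescaling. Of the collagens Col3a1, Col5a1, Col5a2 and Col6a3, which form or join the fibril network, 4 of 4 rose in mesenteric, epididymal and retroperitoneal fat, 3 of 4 in brown fat, 2 of 4 in subcutaneous fat and 2 of 3 in liver. Over all genes the shares that rose were 38%, 36.3%, 35%, 29%, 8.83% and 20.9% in the same order. After rescaling 1 of 4 rose in mesenteric and in subcutaneous fat and 1 of 3 in liver, against 8.69%, 6.51% and 8.83% of all genes. In kidney 1 of 4 fell, Col5a2 by 0.81 on the log2 scale (adjusted p = 0.0127), where 0.0505% of all genes fell. Col3a1 changed by 2.32 ± 0.19 in epididymal fat (rescaled 2.16) and 1.29 ± 0.30 in liver (rescaled 1.16). The number of genes in each list that could be measured was limited by the chromosomes covered.

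Cell type markers moved with diet in the same tissues. In bulk libraries fewer or more cells of a type and less or more RNA per cell cannot be told apart. All sums of markers are of CPM as deposited, without rescaling. Summed macrophage markers (4 of 6 in the table) ran from 1322 to 4057 CPM in DIO and 120.3 to 178 in lean epididymal fat, from 1051 to 3280 against 89.3 to 174 in retroperitoneal fat, from 572 to 879 against 97.3 to 138 in mesenteric fat and from 20.4 to 63.7 against 12.2 to 19.9 in brown fat. They overlapped in subcutaneous fat, at 212 to 324 CPM in DIO and 89.1 to 572 in lean, and in liver, at 78.9 to 138 and 78.5 to 99.4. Summed fibroblast markers (5 of 11) were 861 to 1336 against 366 to 513 CPM in epididymal fat, 585 to 1376 against 381 to 415 in mesenteric fat and 169 to 183 against 133 to 152 in liver, where Gpc1 and Prelp rose. They overlapped in subcutaneous (1121 to 1528 against 415 to 1323), retroperitoneal (764 to 1182 against 758 to 1033) and brown fat (58.2 to 130 against 37.9 to 63.8). As deposited, 4 of 5 fibroblast markers tested were called higher in mesenteric fat and 1 of 1 in liver (38% and 20.9% of all genes). After rescaling the counts were 2 and 0 (8.69% and 8.83% of all genes). Adipocyte markers (3 of 6) summed to less in every DIO library than in any lean one in epididymal (3946 to 11020 against 14350 to 20470 CPM), retroperitoneal (5960 to 11360 against 14100 to 30000) and mesenteric fat (7396 to 14630 against 16280 to 18850).

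Endothelial markers (3 of 5) were higher in DIO without overlap in the 3 depots where Prelp and Gpc1 changed most, at 364 to 428 against 194 to 319 CPM in subcutaneous fat, 267 to 376 against 223 to 259 in mesenteric fat and 238 to 293 against 112 to 162 in brown fat. Smooth muscle and pericyte markers (4 of 6) were separated in the same 3 depots. They were at 478 to 642 against 249 to 474 CPM, 304 to 2504 against 239 to 276 and 525 to 751 against 359 to 429. In the same order, 1 of 3, 1 of 3 and 3 of 3 endothelial markers tested were called higher, and 1, 0 and 3 after rescaling. Of smooth muscle and pericyte markers 1 of 3, 1 of 4 and 2 of 3 were, and 0, 0 and 2 after rescaling. Over all genes 8.83%, 38% and 29% rose, and 6.51% and 8.69% after rescaling in the first 2 depots. In epididymal fat, where Gpc3 and Gpc4 fell, endothelial markers overlapped at 159 to 289 and 267 to 349 CPM, and smooth muscle and pericyte markers were lower in DIO, at 85.6 to 307 against 352 to 522. There 2 of 3 endothelial markers tested and 2 of 3 smooth muscle and pericyte markers were called lower. The counts were the same after rescaling. Of all genes 17.8% fell there as deposited and 25.7% after rescaling. Lymphoid markers (5 of 7) were higher in DIO without overlap in epididymal (212 to 497 against 40.3 to 54.5 CPM), retroperitoneal (129 to 690 against 29.2 to 43.1), mesenteric (134 to 1238 against 43.0 to 78.6) and brown fat (9.41 to 22.2 against 5.16 to 9.17). They overlapped in subcutaneous fat, at 59.95 to 76.11 CPM in DIO and 29.59 to 1344 in lean, with 0 of 5 tested called. In epididymal, retroperitoneal and mesenteric fat 2 of 2, 2 of 2 and 2 of 5 tested were called higher. Of all genes 36.3%, 35% and 38% rose there. After rescaling the counts were 2, 2 and 1, where 621 of 2155, 441 of 2123 and 194 of 2232 genes rose. None passed the filter in brown fat. Libraries that carried Cr2 or Cd2 are in these ranges. Epididymis markers (6 of 8) were lower in DIO without overlap in all 5 depots, at 2.43 to 9.12 against 27.8 to 166 CPM in epididymal, 1.58 to 4.19 against 12.2 to 34 in retroperitoneal, 8.17 to 23.1 against 27.9 to 36.0 in mesenteric, 4.21 to 6.26 against 8.89 to 31.4 in subcutaneous and 0.423 to 1.202 against 3.06 to 4.79 in brown fat. In each white depot only 1 gene of the epididymis list passed the filter of 10 CPM, and in brown fat the sums were near the floor. Stomach had sums of 41.2 to 66.1 CPM in DIO and 31.9 to 63.1 in lean, so the list is not particular to epididymis. No fibroblast or macrophage marker was at 0 in any white fat library. Atp6v0d2 reached 0 in 1 or more lean brown fat libraries. The part of these markers in the changes of the 7 genes was not tested.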

How the data were processed

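Per the labels, TruSeq stranded mRNA libraries were read in pairs on an Illumina HiSeq. The authors deposited CPM per gene and library; the tools listed, per the submitters' processing notes, are DESeq2, FastQC, HTSeq and STAR, with no role given, and their versions, the build and the strand setting are unstated in the sources used here. Reads of overlapping genes therefore cannot be told apart. Whole reads were recovered from the CPM (100% of values whole within 0.001 read). The table covered chromosomes 1, 2, X, 3 and the start of 4, between 13.0% and 23.1% of a library's reads (median 19.1%). A column without a matching sample (1) and a gene with missing values (1) were not analysed here.

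DIO and lean libraries of a tissue were compared with limma 3.58.1 (R 4.3.3, mean-variance trend) on log2(CPM + 1), with genes of at least 10 CPM on average and Benjamini-Hochberg adjustment at 0.05; this scale understates changes of low genes. The code was tested on simulated data. Alternatives were a pseudocount of 5, no filter, median-of-ratios rescaling, array weights, 1 common fit of the 204 libraries, edgeR 4.0.16 and DESeq2 1.42.0 on recovered reads, libraries left out singly, and 10 libraries with foreign or missing markers left out together; after seeing the data 2 covariates were added: the level of Ttn in brown fat, and a 10-gene index (mean log2 level of Atp5e, Cops9, Ndufc1, Rpl22l1 and Rpl39 minus that of Dynlrb1, Kantr, Ncoa6, S100a1 and Ubap2l). Replicate numbers follow accession order and only name a library. All 7 genes are named throughout; other pathway genes are at most 3 per list and tissue, by lowest adjusted p among those called, and similar genes are the 2 of highest Pearson r. Members, lists and alternatives were chosen with earlier results of these data known.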

Additional observations from a re-analysis of the deposited data

Results flagged for a closer look

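In 219 groups of 4 or 5 libraries, 15 had 1 library far from the rest by Dixon's criterion, which chance alone meets in about 1 group of 20. EDL DIO replicate 3 stood high for Prelp, at 349.4 CPM with the others between 6.503 and 49.5, and for Bgn, at 129.2 CPM with the others between 17.3 and 47.2. Liver DIO replicate 3 stood high for the same 2 genes, Prelp at 82.46 CPM (others 47.4 to 53.4) and Bgn at 163.6 CPM (others 95.7 to 114). Prelp was also set apart in adrenal DIO replicate 2, at 2567 CPM with the others between 266 and 822, and in stomach lean replicate 1, at 41.37 CPM with the others between 13.7 and 19.6. Adrenal DIO replicate 2 is 1 of the libraries that lacked Hsd3b1.

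Gpc1 was set apart in hypothalamus, high in DIO replicate 2 (97.51 CPM, others 85.6 to 89.0) and low in lean replicate 4 (76.97 CPM, others 89.3 to 93.9), and in EDL DIO replicate 5 (346.2 CPM, others 236 to 264). Gpc3 was high in adrenal DIO replicate 4 (197.1 CPM, others 80.6 to 109), colon DIO replicate 5 (28.2 CPM, others 13.4 to 15.1) and colon lean replicate 4 (26.7 CPM, others 8.19 to 10.9), and low in epididymal lean replicate 2 (6.8 CPM, others 26.8 to 28.8). Gpc4 was low in adrenal lean replicate 1 (21.56 CPM, others 53.5 to 66.3), which also lacked Hsd3b1, and high in jejunum lean replicate 4 (64.24 CPM, others 40.9 to 45.7).

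For 6 genes the size of the diet effect was unequal among the 4 white fat depots in the limma F test of diet by depot, with adjusted p of 0.03269 for Prelp, 0.007581 for Bgn, 0.003511 for Gpc1, 0.00574 for Gpc3, 0.002426 for Gpc4 and 0.01368 for Sdc4.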

How the results depend on the processing

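Across the alternatives and left-out libraries no called change reversed, and 16 of 27 calls (15 rises and 1 fall) passed in all of them: Bgn and Gpc1 in the 5 fat depots, Gpc1 in liver, Prelp in mesenteric, brown and retroperitoneal fat, Sdc4 in retroperitoneal fat and the fall of Gpc4 in epididymal fat. With array weights the 21 rises became 33 and the 6 falls 11, and 2 members passed the intestine interaction, where none had. Falls numbered 1 with no filter, 3 in a single fit over all libraries and 3 with the 10-gene index as covariate. The cause was not tested. Under the other alternatives rises were 18 to 26 and falls 5 to 8, and with 1 library left out at a time 20 to 23 and 4 to 7. The white fat interaction was called for 5 or 6 members; for Prelp it was lost with no filter (0.0901) and in 9 of 35 left-out fits (highest 0.0656), and for Sdc4 without the 10 libraries with foreign or missing markers (0.0700). No paired analysis was possible because the labels give no replicate numbers. The filter of 10 CPM left Gpc3 tested in 7 of 21 tissues; what depth limits was not tested.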
